A study of Rattus norvegicus with 19 samples.

Results

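Txnip, 3 genes of the thioredoxin system proper (Txnrd1, Txnrd2 and Txn2), 4 peroxiredoxins (Prdx1, Prdx2, Prdx3 and Prdx6) and the metallothioneins Mt1 and Mt3 were followed in rat retina. The genes were taken by their symbols in the array's annotation, 10 of the 12978 genes that had a named probe. Each of the 10 had 1 probe, and each probe was detected on 19 of 19 arrays, so no gene of the set was lost to the filter on low signals. All male Sprague-Dawley rats were studied 3 months after an injection. The 7 control rats were given the citrate vehicle alone, and the 5 diabetic rats were given 65 mg/kg streptozotocin (STZ), a toxin taken up by the insulin-producing beta cells. The 7 insulin-treated diabetic rats were given the same STZ dose and then, from week 6, slow-release insulin pellets of 26 mg under the skin, with a further pellet when glucose or body weight passed a set limit. The rats of this group had therefore been diabetic without treatment before insulin began. Ages are given only as matched between the groups. Whole retinas were taken with the pigment epithelium, and the lens was removed at dissection. Arrays of 3 diabetic rats and 1 insulin-treated rat had been discarded by the authors for quality, and no array was dropped or imputed here. The paper names no discarded control array, yet counts more control arrays than were available here. Why the control group is smaller here is not stated, so it is not the full control group of the paper.

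Thioredoxin is a small protein that reduces disulfide bonds in other proteins. Its oxidised form is restored by the thioredoxin reductases, with electrons from NADPH, and it passes electrons to the peroxiredoxins, which break down hydrogen peroxide. Txnip binds reduced thioredoxin and belongs to the alpha-arrestins, and its transcription rises with glucose in many cell types. Metallothioneins are cysteine-rich proteins that bind zinc and copper, and Mt1 is induced by metals and glucocorticoids through its promoter, while Mt3 is best known from the nervous system. The retina has a high oxygen consumption, and glia and pigment epithelium contribute to its antioxidant defence.

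Signals are given as log2 of the authors' average-normalized intensity (signals under 10 set to 10), and a difference of 1 on this scale is a doubling. A gene was called when limma's p-value, after Benjamini-Hochberg correction for all 10718 detected probes, was under 0.05. In whole tissue, fewer cells of a type and less RNA per cell cannot be told apart. The mean non-normalized signal per array ran from 307 to 475, between 11239 and 11824 probes were detected per array, and the arrays of each group lay on both BeadChips. Of the rod markers 4 of 5 were detected, with a summed signal of 40387 to 43483 in control, 43954 to 54653 in diabetic and 35731 to 49092 in insulin-treated retinas. Lens markers, 8 of 15 detected, summed to 4023 to 55807 in control, 11327 to 80108 in diabetic and 1225 to 15292 in insulin-treated retinas. They averaged 9.72, 11.13 and 7.80 on the log2 scale in these groups. Markers of the pigment epithelium, 3 of 6 detected, summed to 288 to 1930, 171 to 578 and 142 to 1169, and none of 3 markers of cornea and conjunctiva was detected. Markers of Müller glia, 5 of 6 detected, summed to 13469 to 17616 in control, 15285 to 19732 in diabetic and 12570 to 14717 in insulin-treated retinas. The sums of the last 2 groups did not overlap, but their mean log2 signals did (10.75 to 11.17 and 10.64 to 10.86). The rod sums of control and diabetic retinas did not overlap either, while their mean log2 signals did. The 1 detected marker of microglia and leukocytes, of 4, ran from 152 to 243, 152 to 572 and 137 to 543, with diabetic rat 4 and insulin-treated rat 3 the highest. The part of these cells and tissues in the results below was not tested except through a fit with the lens markers as a covariate, which is given beside each call. The lens markers themselves followed the groups, from 8.87 to 12.87 on the log2 scale in diabetic and 6.28 to 9.79 in insulin-treated retinas. That fit therefore also takes up part of the group difference, and a call lost in it cannot tell lens signal and treatment apart.

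Txnip and Mt1 rose in diabetic rats, and no other gene of the set passed the test in that comparison. Of all tested probes 2.79% were called between diabetic and control rats, 0.886% higher and 1.90% lower, against 2 of the 10 genes, both higher. The split of all calls depended on the scaling, with 31.8% of them higher here and 56.5%, 56.3% and 59.5% higher after quantile normalization, neqc and median-centring of the non-normalized signals. Both genes stayed called under each of these scalings. Both calls were lost without the detection filter, with the methods' t-test and on either BeadChip alone. Each was also lost with some single arrays left out. Between insulin-treated and control rats 0.00933% of probes and 0 of the 10 genes were called by limma. At an unadjusted p under 0.05 that comparison took in 2 of the 10 genes, Txnip and Mt1, against 8.98% of all probes. Between insulin-treated and untreated diabetic rats 10.4% of probes were called, 6.49% higher and 3.93% lower with insulin, against 1 of the 10 genes, Txnrd2, which was higher. At an unadjusted p under 0.05 this last comparison took in 2 genes, Txnrd2 and Prdx1, against 27.1% of probes, and for 0 of the 10 genes did the groups not overlap, against 3.73% of probes. The study had itself picked Txnip and Mt1 on arrays of the same experiment, and the direction of both here is therefore no independent evidence. The paper also measured both (Mt1 as Mt1a) by quantitative PCR, which is not part of these data. It reported both raised in diabetic rats, also in separate rats at an earlier time, and still raised under insulin.

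**Figure D1:**
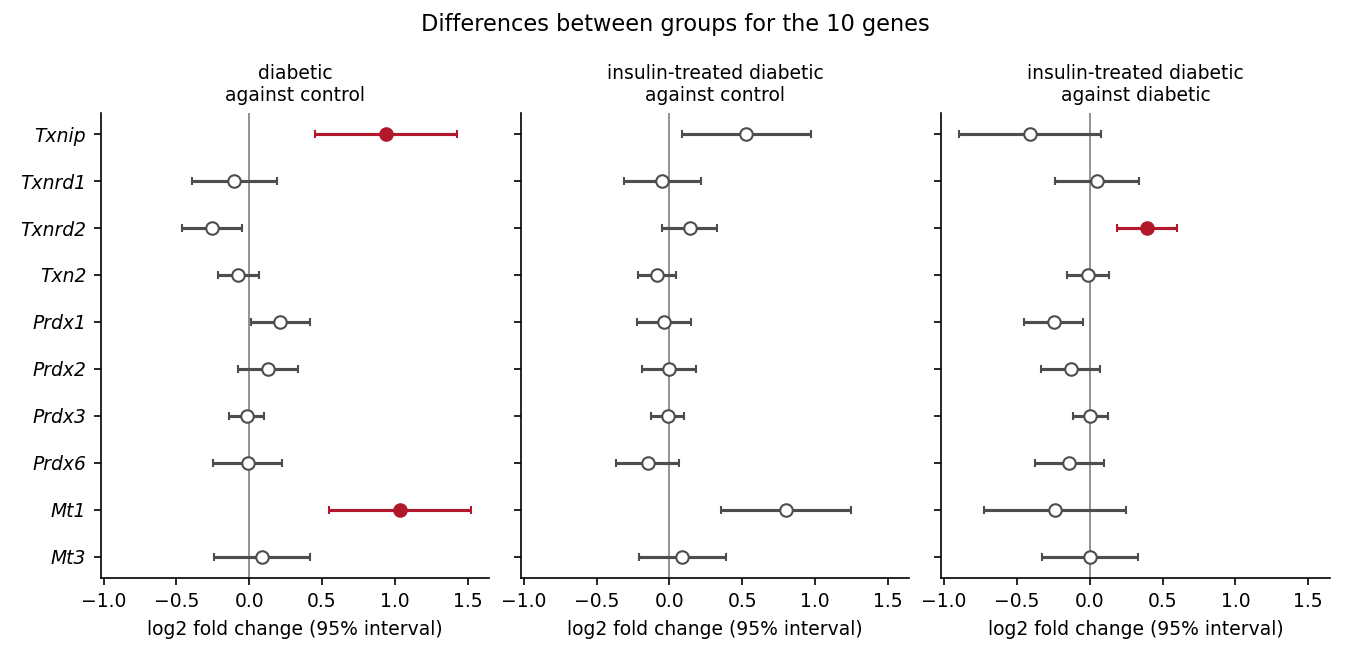
Log2 fold changes of the 10 genes (rows) in the 3 comparisons (panels), with 95% intervals from limma on the x axis. Filled red points passed an adjusted p of 0.05: Txnip (0.94) and Mt1 (1.04) in diabetic against control rats and Txnrd2 (0.39) in insulin-treated against diabetic rats.

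Txnip, the thioredoxin-binding arrestin, lay between 8.55 and 9.08 in the 7 control retinas, with a median of 8.90. In the 5 diabetic retinas it read 9.59, 10.57, 9.35, 10.17 and 9.35. The groups did not overlap, as held for 2.98% of all probes, and the diabetic values spread more widely (SD 0.54, n = 5) than the control ones (SD 0.18, n = 7), with rats 2 and 4 well above the other 3. The difference was 0.94 (SE 0.23, 95% interval 0.45 to 1.43), a 1.92-fold rise with an interval of 1.37- to 2.69-fold and an adjusted p of 0.0396 by limma. Within BeadChips 1 and 2 it was 0.87 and 0.99. The call lay close to the threshold. With any 1 of the 7 control arrays left out, the adjusted p ran from 0.0553 to 0.0726. It was 0.109 without diabetic rat 2, 0.0816 without diabetic rat 4 and 0.0504 without insulin-treated rat 2. It was 0.0959 without the detection filter, 0.0698 with the methods' t-test, and 0.405 and 0.238 on BeadChips 1 and 2 alone. With the lens markers as a covariate the difference was 0.78 and the adjusted p was 0.101. The microglial marker was highest in diabetic rat 4 and insulin-treated rat 3, both high in Txnip. In diabetic rat 2, the highest of all in Txnip, it read 199, within the control range of 152 to 243. The part of this marker was not tested.

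In the 7 insulin-treated retinas Txnip ran from 8.66 to 10.25 with a median of 9.34. Of these rats 6 lay above the highest control and 1, rat 5, lay within the control range, while rats 2, 3 and 6 lay within the diabetic range at 9.46, 10.25 and 9.77. The order of the group means was control (8.86), insulin-treated (9.39) and diabetic (9.80). Neither step of that order passed the test. The insulin-treated mean exceeded control by 0.53 (95% interval 0.08 to 0.97, adjusted p = 0.418 by limma) and differed from diabetic by -0.41 (95% interval -0.90 to 0.08, adjusted p = 0.266). The interval of the second difference takes in 0, so a difference in either direction was not shown. With the lens markers as a covariate that second difference was -0.03 (adjusted p = 0.979 by limma).

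**Figure D2:**
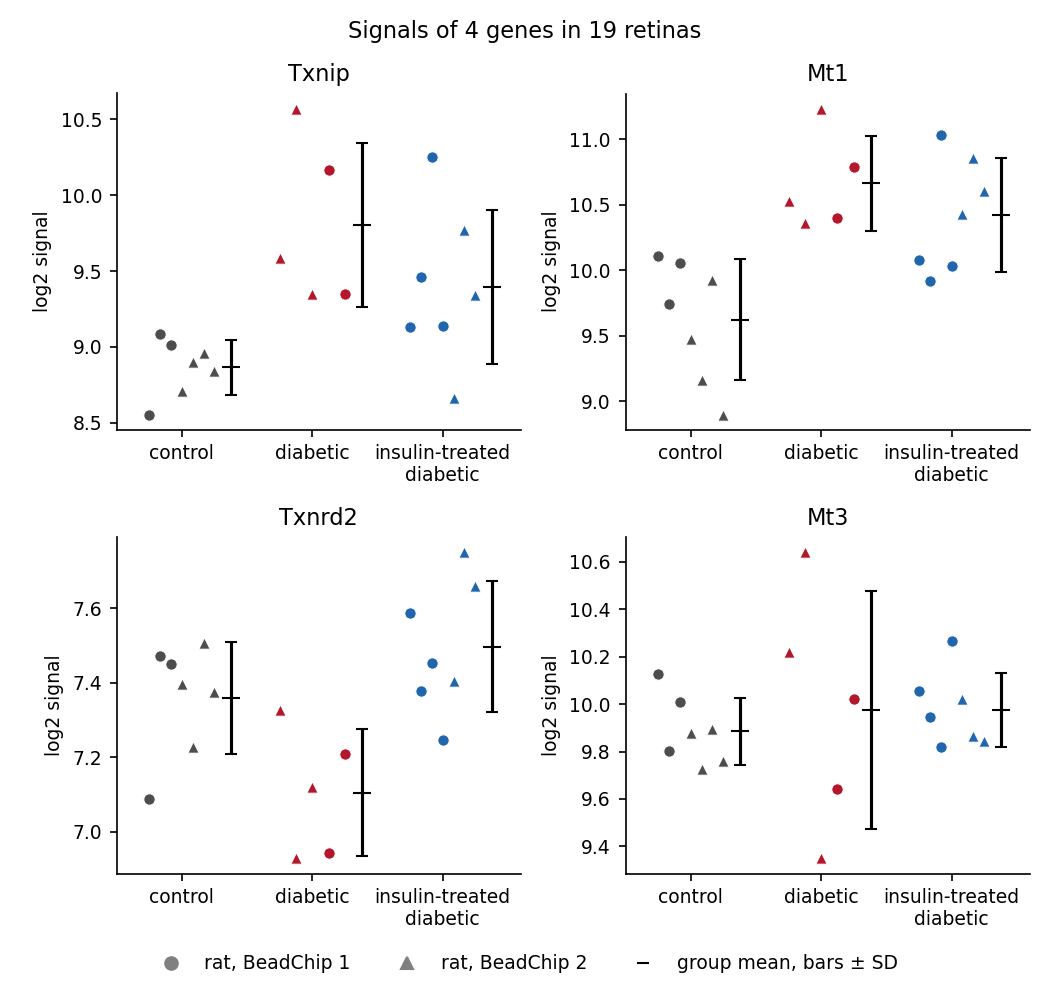
Log2 signals of Txnip, Mt1, Txnrd2 and Mt3 (y axis) in the control, diabetic and insulin-treated diabetic rats (x axis). Each symbol is a retina (circle, BeadChip 1; triangle, BeadChip 2) and the bar is the group mean ± SD; all 5 diabetic rats lie above the highest control for Txnip and Mt1.

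Of the thioredoxin reductases and mitochondrial thioredoxin, none was called between diabetic and control rats, and Txnrd2 was called between insulin-treated and diabetic rats. Txnrd2, the mitochondrial reductase, read 7.33, 6.93, 7.12, 6.94 and 7.21 in the diabetic retinas against 7.09 to 7.51 (median 7.40) in controls and 7.25 to 7.75 (median 7.45) with insulin. All 5 diabetic values lay below the control mean, and 3 of 7 insulin-treated values exceeded the highest control. Insulin-treated rats exceeded diabetic rats by 0.39 (SE 0.099, 95% interval 0.19 to 0.60), a 1.31-fold difference with an adjusted p of 0.0194 by limma, and by 0.34 and 0.48 within BeadChips 1 and 2. The diabetic rats differed from control by -0.25 (95% interval -0.46 to -0.05, adjusted p = 0.148), and the insulin-treated rats by 0.14 (95% interval -0.05 to 0.33, adjusted p = 0.739). Without diabetic rat 2 or rat 4, the rats with the highest Txnip and the lowest Txnrd2, the adjusted p of the insulin difference was 0.0573 and 0.0537. It was 0.0636 with the methods' t-test, and 0.363 and 0.0786 on BeadChips 1 and 2 alone. With the lens markers as a covariate the difference was 0.48 with an adjusted p of 0.158. The Müller glia markers, whose summed signals but not mean log2 signals were apart between these groups, were not tested for their part in this call. Nor were they tested for the calls of Nxn, Glrx and Arrdc1.

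Txnrd1, the cytosolic reductase, lay between 7.24 and 8.09 in control, 7.47 and 7.86 in diabetic and 7.40 and 7.995 in insulin-treated retinas. The ranges of all 3 groups overlapped, and diabetic and control rats differed by -0.10 (95% interval -0.39 to 0.19, adjusted p = 0.709 by limma). Txn2, the mitochondrial thioredoxin, was held within 8.39 and 8.76 on all arrays. Its difference between diabetic and control rats was -0.07 (95% interval -0.22 to 0.07, adjusted p = 0.555 by limma). With insulin it differed from diabetic by -0.01 (95% interval -0.16 to 0.13).

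Among the peroxiredoxins, Prdx1 came nearest to a change. Prdx1, a cytosolic peroxidase, read 11.30, 11.63, 11.20, 11.24 and 11.10 in the diabetic retinas, all 5 above the control mean of 11.08, while only 2 exceeded the highest control, 11.26. The difference was 0.21 (95% interval 0.01 to 0.42) with an adjusted p of 0.218 by limma, and insulin-treated rats differed from diabetic rats by -0.25 (95% interval -0.45 to -0.04, adjusted p = 0.107). Together with Txnip, Mt1 and Txnrd2 it made 4 of the 10 genes with an unadjusted p under 0.05 between diabetic and control rats, where 20.8% of all probes had one.

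Prdx2, another cytosolic peroxidase, differed by 0.13 (95% interval -0.07 to 0.33) between diabetic and control rats, and 1 array, diabetic rat 2, stood above all others at 12.62. Prdx3, the mitochondrial peroxiredoxin that Txn2 and Txnrd2 serve, had the narrowest interval of the 10 genes. It differed from control by -0.02 with diabetes (95% interval -0.14 to 0.10) and by -0.01 with insulin (95% interval -0.12 to 0.10), and the sign of the diabetic difference turned under other scalings. Prdx6, which has a single active cysteine and takes its electrons from glutathione, differed by -0.01 with diabetes (95% interval -0.25 to 0.23), again with a sign that turned under other scalings. All 7 insulin-treated values of Prdx6 lay below the control mean of 10.18, between 9.75 and 10.15, but the controls themselves ran from 9.81 to 10.44, and the difference of -0.15 (95% interval -0.37 to 0.06) had an adjusted p of 0.765 by limma.

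**Figure D3:**
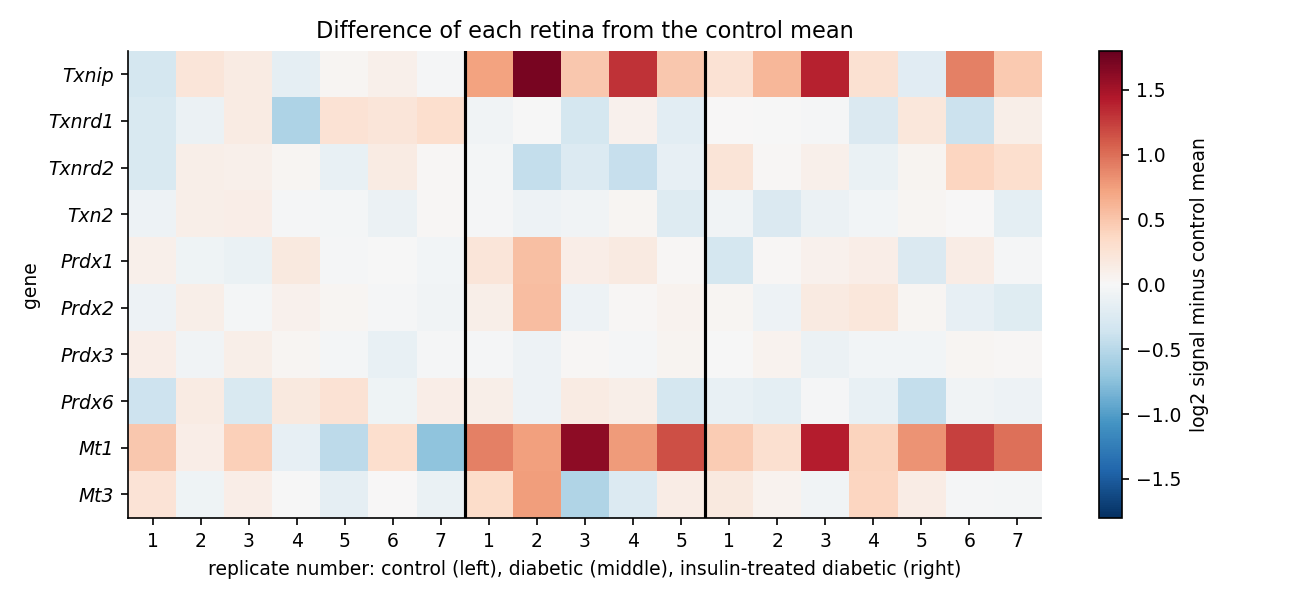
Difference in log2 signal of each of the 19 retinas (columns, by replicate number within group) from the control mean of that gene (rows), with red above and blue below. The Txnip and Mt1 rows are red in all 5 diabetic columns, up to 10.57 and 11.23 in log2 signal, and Txnip falls below the control mean in 1 insulin-treated column, rat 5.

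Mt1 and Mt3 are neighbours on chromosome 19 of the rat assembly GRCr8, on the minus strand, at chr19:10831959-10832975 and chr19:10854676-10856080, with 21700 bases between them. Only Mt1 was called. The 250 bases before the start of each gene are shown from RefSeq (GRCr8) because Mt1 was called and its neighbour was not. The difference between their responses was not tested. Capitals mark the core of the metal response element, searched as TGCACNC or TGCGCNC on both strands, with no overlap between matches. The windows are chr19:10832976-10833225 for Mt1 and chr19:10856081-10856330 for Mt3, both minus strand.
Mt1: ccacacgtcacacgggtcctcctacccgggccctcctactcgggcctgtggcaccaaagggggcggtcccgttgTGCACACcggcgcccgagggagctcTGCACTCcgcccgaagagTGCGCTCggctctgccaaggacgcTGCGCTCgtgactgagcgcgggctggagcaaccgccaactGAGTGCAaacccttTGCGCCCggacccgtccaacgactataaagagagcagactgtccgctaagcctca
Mt3: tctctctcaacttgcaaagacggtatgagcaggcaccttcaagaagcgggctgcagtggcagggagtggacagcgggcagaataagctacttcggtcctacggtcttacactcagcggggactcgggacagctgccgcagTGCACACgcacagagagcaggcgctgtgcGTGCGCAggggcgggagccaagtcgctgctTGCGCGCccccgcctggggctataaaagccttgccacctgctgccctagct

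The Mt1 window held 6 matches, starting at positions -176, -151, -133, -109, -69 and -55 from the gene start, and the Mt3 window held 3, starting at -110, -81 and -51. Of 33469 rat promoters of this length 20.6% held at least 1 match, 1.17% at least 3 and 0.0269% (9 promoters) at least 6. Windows of 8 of the 10 genes were searched, not those of Txnip and Prdx6, and none of the 6 searched genes other than Mt1 and Mt3 held a match. The core of the antioxidant response element (TGACNNNGC, both strands), found in 10.1% of promoters, occurred once each upstream of Mt1, of Prdx1 and of 1 of the starts of Txnrd1. The E-box CACGTG, found in 5.59% of promoters, was in none of the windows of these 8 genes. A match is a run of letters and not a measured binding site.

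**Figure D4:**
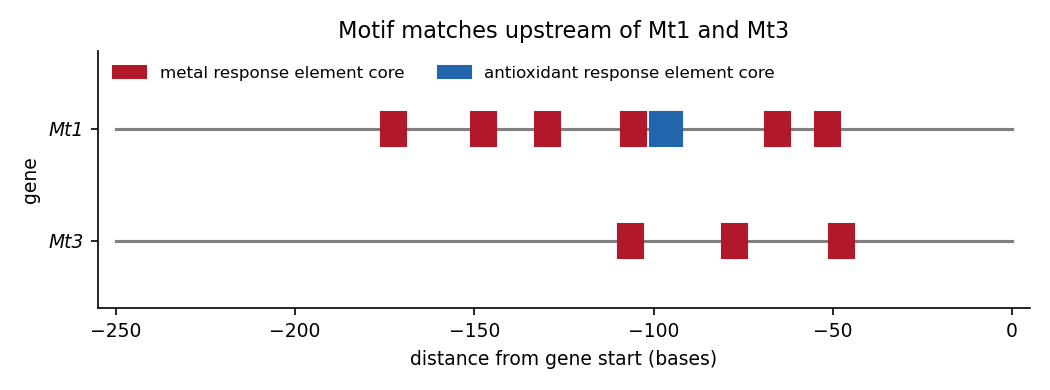
Motif matches in the 250 bases before the gene start of Mt1 and Mt3 (rows), with the distance from the start in bases on the x axis. Red boxes are metal response element cores, 6 upstream of Mt1 and 3 upstream of Mt3, and the blue box is the 1 antioxidant response element core upstream of Mt1.

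Mt1 had the largest change of the 10 genes in diabetic against control rats. It ran from 8.90 to 10.11 (median 9.74) in control retinas and read 10.53, 10.36, 11.23, 10.40 and 10.79 in the diabetic ones. The groups did not overlap, with the lowest diabetic rat at 10.36 above the highest control at 10.11. The difference was 1.04 (SE 0.23, 95% interval 0.55 to 1.53), a 2.05-fold rise with an interval of 1.47- to 2.88-fold and an adjusted p of 0.0292 by limma. It was 0.62 on BeadChip 1 and 1.35 on BeadChip 2, and 1.10 (adjusted p = 0.0442) with the lens markers as a covariate. The call was lost without control rat 5 (adjusted p = 0.0536) or control rat 7 (adjusted p = 0.0520), the controls with the lowest Mt1, both on BeadChip 2. It was also lost without the detection filter (adjusted p = 0.0714), with the methods' t-test (0.0758) and on BeadChips 1 and 2 alone (0.476 and 0.1498).

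With insulin, Mt1 ran from 9.92 to 11.04 with a median of 10.43. All 7 insulin-treated retinas lay above the control mean of 9.62 and 4 lay above the highest control. The difference from control was 0.80 (95% interval 0.35 to 1.24, 1.74-fold), the 64th smallest p of all probes in that comparison but with an adjusted p of 0.225 by limma. It was 0.30 on BeadChip 1 and 1.27 on BeadChip 2, and a test of that difference between BeadChips had an unadjusted p of 0.0258 and an adjusted p of 0.758 by limma. Against diabetic rats it was -0.24 (95% interval -0.73 to 0.25, adjusted p = 0.540). The order of group means was control, insulin-treated, diabetic, as for Txnip, and the difference between the upper pair did not pass the test. Whether the Mt1 probe also binds the transcript of its close relative Mt2A was not tested.

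Mt3, the metallothionein of the nervous system, read 10.22, 10.64, 9.35, 9.64 and 10.02 in the diabetic retinas, on both sides of the control range of 9.73 to 10.13. Its diabetic SD, 0.50 (n = 5), compared with 0.14 (n = 7) in controls and 0.16 (n = 7) with insulin. The mean differences were 0.09 with diabetes (95% interval -0.24 to 0.42, adjusted p = 0.781 by limma) and 0.09 with insulin (95% interval -0.21 to 0.39). The sign of the first was set by diabetic rat 2, without which it was -0.08. Diabetic rat 3, the highest of all arrays for Mt1, was the lowest of all for Mt3.

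Other genes of these pathways were described from 3 lists. Of 17 detected partners of thioredoxin and of protein thiols, 0 were called between diabetic and control rats by limma (4 at an unadjusted p under 0.05), where 2.79% of all probes were called and 20.8% had such an unadjusted p, with a median difference of 0.02 against -0.07 over all probes. In insulin-treated against diabetic rats 0 rose and 2 fell, where 6.49% and 3.93% of all probes did, with a median of -0.02 against 0.06. Nxn, a thioredoxin-like protein, was lower by 0.73 in insulin-treated than in diabetic rats (95% interval -1.06 to -0.41, adjusted p = 0.00953 by limma). It read 7.93 to 8.54 in diabetic, 7.32 to 7.52 in insulin-treated and 7.30 to 8.32 in control retinas. Neither the diabetic difference from control (0.27, adjusted p = 0.334 by limma) nor the insulin-treated one (-0.46, adjusted p = 0.241) was called. With the lens markers as a covariate the difference between insulin-treated and diabetic rats was -0.30 (adjusted p = 0.467 by limma). Among control rats, Nxn and the lens markers (mean log2 signal) were lowest in rats 1 and 3, at 7.30 and 7.45 for Nxn and 6.97 and 7.86 for lens. In insulin-treated rats the lens markers ran from 6.28 to 9.79 and Nxn from 7.32 to 7.52. The part of the lens signal in Nxn was not tested beyond that fit. Glrx, the cytosolic glutaredoxin, fell by 0.38 with insulin (adjusted p = 0.0410 by limma), from a diabetic mean of 9.59 ± 0.21 (SD, n = 5) to 9.21 ± 0.17 (SD, n = 7), and had an adjusted p of 0.0502 with the BeadChip as a block and 0.343 with the lens markers as a covariate (difference -0.37). That call was also lost without either of diabetic rats 2 and 5 and without any 1 of 6 insulin-treated rats, with adjusted p up to 0.114. The control mean of Glrx was 9.31 ± 0.21 (SD, n = 7). Diabetic rats differed from control by 0.29 in Glrx, which was not called (adjusted p = 0.160 by limma). Txndc9 and Sesn3, named for their small p between diabetic and control rats, differed by -0.19 (adjusted p = 0.170) and -0.30 (adjusted p = 0.168).

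Among 7 detected genes of glucose sensing and the alpha-arrestin family, the family of Txnip, 1 rose with diabetes, where 0.886% of all probes did, and the same 1 was lower with insulin than without, where 3.93% were. Arrdc1, an alpha-arrestin at the plasma membrane, read 7.90, 8.09, 7.71, 7.78 and 8.06 in the diabetic retinas, 7.19 to 7.60 (median 7.43) in controls and 7.30 to 7.60 (median 7.40) with insulin. Diabetic rats lay above every rat of both other groups. The rise was 0.49 (95% interval 0.32 to 0.67, adjusted p = 0.00648 by limma) and was 0.56 and 0.45 within BeadChips 1 and 2, and 0.45 (adjusted p = 0.0266) with the lens markers as a covariate. Insulin-treated rats lay 0.49 below diabetic ones (95% interval -0.66 to -0.32, adjusted p = 0.00335 by limma) and 0.00 from control (95% interval -0.15 to 0.16, adjusted p = 0.998). Both calls held with each array left out in turn, but with the lens markers as a covariate the insulin difference was -0.39 with an adjusted p of 0.158. The diabetic call was lost on BeadChips 1 and 2 alone (adjusted p = 0.204 and 0.196 by limma). The insulin call was lost on BeadChip 1 alone (adjusted p = 0.224 by limma). These comparisons share the diabetic arrays. Mlx, a partner of the glucose-sensing transcription factors, and Itch, a ubiquitin ligase that binds alpha-arrestins, were at -0.21 (adjusted p = 0.364) and -0.56 (adjusted p = 0.301) relative to control in diabetic rats. The list's median was -0.10 between diabetic and control rats.

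**Figure D5:**
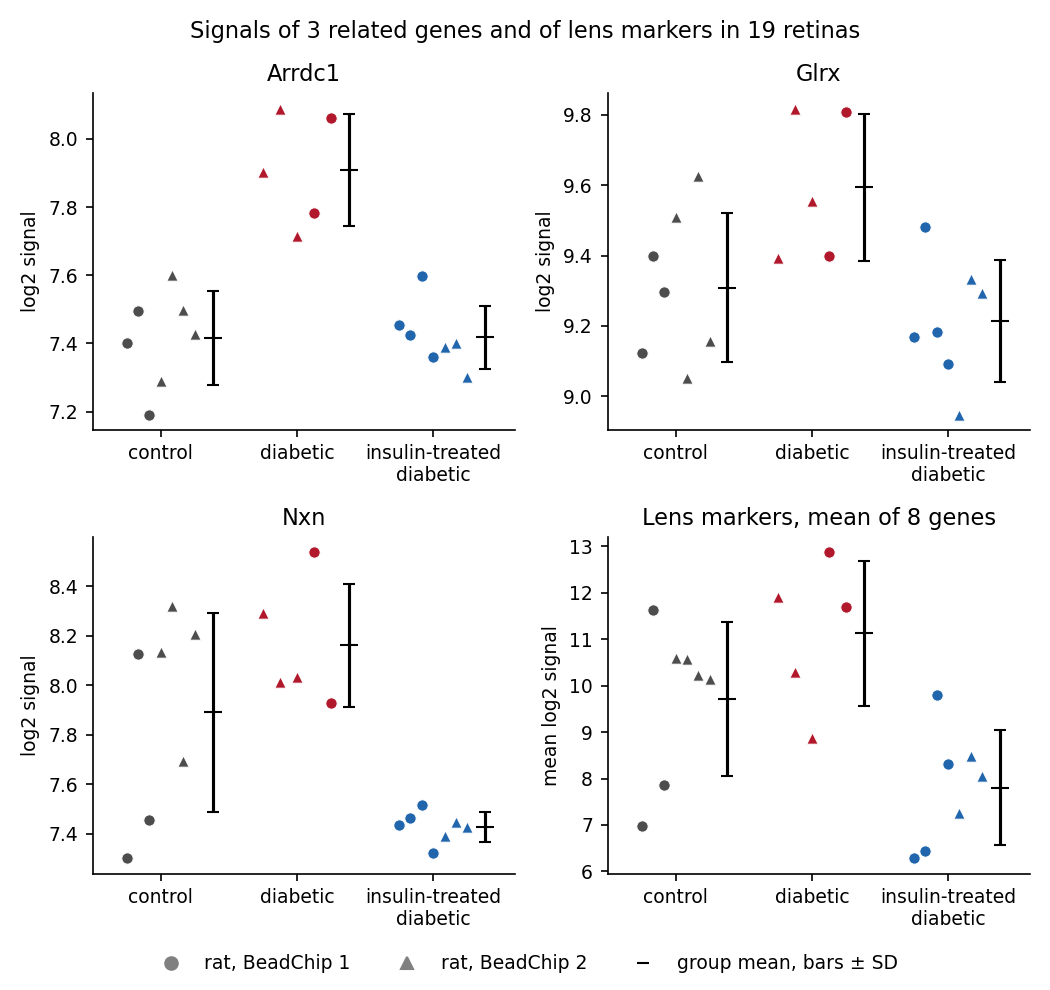
Log2 signals of Arrdc1, Glrx and Nxn and the mean log2 signal of 8 lens markers (y axes) in each retina by group (x axis; circle, BeadChip 1; triangle, BeadChip 2; bar, mean ± SD). Arrdc1 is at 7.71 or above in diabetic rats alone, and Nxn is at 7.52 or below in all insulin-treated rats, whose lens markers run from 6.28 to 9.79.

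Of 14 detected genes of metal handling, 0 were called in any of the 3 comparisons by limma, in which 2.79%, 0.00933% and 10.4% of all probes were. An unadjusted p under 0.05 was found for 4 between diabetic and control rats (20.8% of all probes), 1 between insulin-treated and control rats (8.98%) and 2 between insulin-treated and diabetic rats (27.1%). Between diabetic and control rats the list and all probes had medians of -0.05 and -0.07. Slc30a1, a zinc exporter, differed by -0.69 (95% interval -1.18 to -0.19, adjusted p = 0.106 by limma). Slc30a7, a zinc transporter of the Golgi, differed by -0.49 (adjusted p = 0.117). Cp, which encodes the copper protein ceruloplasmin, differed by 1.35 (95% interval 0.30 to 2.40, adjusted p = 0.130), with an SD of 1.40 (n = 5) in diabetic rats against 0.29 (n = 7) in controls.

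The genes most like Txnip and Mt1 over the 19 arrays were taken by Pearson's r of their log2 signals, which holds the differences between groups as well as those between rats and the shared array. Gpsm3 (0.78), Oplah (0.76) and Gsap (0.76) were the nearest to Txnip, and Oxr1 (-0.81), Cav1 (-0.81) and Elp2 (-0.80) the most opposed. After the group means were removed, r with Txnip ran from 0.56 to 0.63 for the first 3 and from -0.71 to -0.66 for the last 3. Rhebl1 (0.81), Pdlim3 (0.80) and Agtpbp1 (0.79) were the nearest to Mt1, and Slc16a3 (-0.83), Zcchc17 (-0.77) and Bcl2l15 (-0.76) the most opposed. With group means removed, r with Mt1 was 0.66, 0.63 and 0.68 for the first 3 and -0.74, -0.52 and -0.42 for the last 3. Oxr1 encodes an oxidation resistance protein, Cav1 the coat protein of caveolae and Slc16a3 a lactate exporter. Txnip and Mt1 themselves correlated at 0.54 over all arrays and at 0.07 after the group means were removed.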

How the data were processed

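Retinal RNA of 19 rats was hybridised to Illumina RatRef-12 arrays, 1 array per rat. The authors summarised bead intensities, subtracted background and scaled each array to a common average in GenomeStudio (version 1.0.6 in the submitters' processing notes), and deposited the resulting linear intensities, a detection p-value for every probe (against negative control probes) and a table of non-normalized intensities. The 22517 probes were joined to their annotation, which gave 13259 a symbol and left 9258 without one. Signals under 10 were set to 10 and log2-transformed. A probe was kept if detected (p under 0.05) throughout 1 or more groups, and the 10718 kept, of which 7429 had a symbol, were tested in limma 3.58.1 (R 4.3.3) with all 3 groups in one model, two-sided, with Benjamini-Hochberg adjustment. A gene was represented by its brightest probe. The BeadChip was read from the file headers. The number of arrays limits the precision. On simulated data for diabetic against control rats (10718 probes, 5 data sets) 92.3% of 200 altered probes (log2 change 1) were recovered, with 11.6 false calls on average. Most differences reported above were smaller than 1, and recovery of smaller changes was not simulated.

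The 10 genes and the 3 lists were chosen with earlier results of these data known. Named from each list were genes called in any comparison and the 3 detected genes with the smallest p between diabetic and control rats, and, for likeness to Txnip and to Mt1, the 3 highest and the 3 lowest r. The promoter sequences came from RefSeq (GRCr8). Alternatives changed the floor, filter, normalization, model, test, replicate block and BeadChips and left out each array in turn. The lens covariate and the test of the difference between BeadChips were chosen after seeing the data.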

Additional observations from a re-analysis of the deposited data

Results flagged for a closer look

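Prdx6 in insulin-treated rat 5 was the lowest of its group at 9.75, with the nearest other rat at 10.01 and a gap of 0.637 of the group's range. It was the 1 array that stood apart among 30 sets of a gene and a group, and chance sets apart an array in about 1 set of 20.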

How the results depend on the processing

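Main counts were 299, 1 and 1117 probes, and 2, 0 and 1 of the 10 genes, for diabetic against control, insulin-treated against control and insulin-treated against diabetic rats. Apart from arrays left out, 464 values under another setting kept their direction and side of the threshold (counts, within 1.5 times), 28 lost the call, 33 turned sign and 35 counts moved further. Diabetic against control gave 107 probes and 0 genes without the detection filter, 102 probes with only the 2 groups in the model, 154 and 0 with the methods' t-test, 9 and 0 on BeadChip 1 alone, 0 and 0 on BeadChip 2 alone, and 117 and 1 with the lens covariate. Insulin-treated against control gave 0 probes with a floor of 50, without the filter, with detection p under 0.01, with the t-test, on BeadChip 1 and with the lens covariate, 2 with quantile normalization, 3 with neqc and 4 on BeadChip 2. Insulin-treated against diabetic gave 595 probes without the filter, 584 with only the 2 groups, 347 and 0 genes with the t-test, 8 and 0 on BeadChip 1, 355 and 0 on BeadChip 2, and 2 and 0 with the lens covariate. A BeadChip alone holds fewer arrays, and the filter sets how many probes are adjusted for. The cause of the other changes was not tested. Arrays of one replicate number did not deviate together (17 pairs, r from -0.24 to 0.27, 2 of 19 arrays closest to their own number). The labels do not say whether the numbers pair rats, and these correlations cannot settle it. With the replicate block the counts were 80 probes and 1 gene, 0 probes, and 482 probes and 0 genes, with an adjusted p of 0.0653 for Txnip and 0.0733 for Txnrd2. With each array left out, the counts ran from 99 to 393 probes and 0 to 2 genes, 1 to 17 probes and 0 to 0 genes, and 542 to 1494 probes and 0 to 1 genes.

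Values that turned sign were small differences that no setting called. Between diabetic and control rats they were Txnrd1 (0.017 on BeadChip 1), Prdx3 (0.0014 with quantile normalization, 0.0014 with neqc, 0.023 median-centred, 0.0075 on BeadChip 2, 0.022 with the lens covariate), Prdx6 (0.040 with quantile normalization, 0.039 with neqc, 0.029 median-centred, 0.0098 with the replicate block, 0.061 on BeadChip 1) and Mt3 (-0.15 on BeadChip 1). Between insulin-treated and control rats they were Txnrd1 (0.0055 on BeadChip 1), Prdx1 (0.012 on BeadChip 1), Prdx2 (0.029 median-centred, 0.087 on BeadChip 1, 0.040 with the lens covariate), Prdx3 (0.018 median-centred, 0.038 on BeadChip 2) and Prdx6 (0.045 on BeadChip 1). Between insulin-treated and diabetic rats they were Txnrd1 (-0.011 on BeadChip 1), Txn2 (0.011 on BeadChip 2, 0.029 with the lens covariate), Prdx2 (0.040 on BeadChip 1), Prdx3 (-0.037 with quantile normalization, -0.037 with neqc, -0.0050 median-centred, -0.0036 with the BeadChip as a block, -0.030 on BeadChip 1, -0.087 with the lens covariate), Prdx6 (0.093 with the lens covariate) and Mt3 (0.035 with the replicate block, 0.19 on BeadChip 1). With an array left out, differences ran between diabetic and control rats from -0.039 to 0.0035 for Prdx3, -0.071 to 0.066 for Prdx6 and -0.077 to 0.25 for Mt3. Between insulin-treated and control rats they ran from -0.14 to 0.0059 for Txnrd1, -0.062 to 0.012 for Prdx1, -0.036 to 0.034 for Prdx2 and -0.036 to 0.0065 for Prdx3. Between insulin-treated and diabetic rats they ran from -0.0032 to 0.11 for Txnrd1, -0.054 to 0.016 for Txn2, -0.016 to 0.018 for Prdx3 and -0.16 to 0.17 for Mt3. The mean of a gene's probes gave no value of its own, since each gene had 1 probe.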

Other observations

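Insulin-treated rats 3 and 6 had the highest values of their group for both Txnip (10.25 and 9.77) and Mt1 (11.04 and 10.86). Within the insulin-treated group the relation was not past the threshold (n = 7, Pearson's r = 0.63, exact permutation p = 0.128, adjusted over 2 groups 0.256; Spearman's rho = 0.50, exact permutation p = 0.267, adjusted 0.533), and r was 0.68 without the 2 rats farthest from the median of Txnip. In controls r was -0.02 (n = 7, exact permutation p = 0.973, adjusted 0.973) and rho was 0.04 (exact permutation p = 0.963, adjusted 0.963), and r was 0.80 without the 2 farthest rats, so the value in controls rests on those rats. No coefficient was computed for the 5 diabetic rats, whose values ran the other way: rats 2 and 4 had the highest Txnip (10.57 and 10.17) and the lowest Mt1 (10.36 and 10.40).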
